A study of Mus musculus with 8 samples.

Results

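The genome-wide ranking of open chromatin was compared between brain sections of mice without Fn14 and sections of their wild-type littermates. The 4 libraries were 2 Fn14 knockout (KO) and 2 Fn14 wild-type (WT) libraries, all on the C57Bl/6J background, untreated and 27 days old after birth. The frozen brains were cut into coronal slabs through hippocampus, cortex and the thalamus with its dorsal lateral geniculate nucleus (dLGN), to which the retina projects. The labels do not describe the Fn14 allele, the sex of the mice or whether each library came from 1 animal, so p-values measure the spread between these libraries, which may in part be technical. Of 329842 regions with a peak in any of the 4 libraries, 107059 (32.5%) had a peak in all 4, and these shared regions are the material of the comparison. The whole series of 8 libraries held 443327 regions with a peak in any library. The other 4 libraries, dLGN of C57Bl/6J mice aged 32 days on PLX5562 or control chow, are used only as a further reading of single regions.

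Fn14, encoded by Tnfrsf12a, is a small receptor of the tumour necrosis factor receptor family. Its ligand TWEAK, encoded by Tnfsf12, is released or displayed by microglia and other cells. Binding of TWEAK recruits TRAF adaptors to the receptor, which leads to the NF-kB pathway through the kinases NIK and IKK and to MAP kinases. In the visual thalamus Fn14 is known as a gene that visual experience induces in relay neurons and that takes part in the removal of synapses. ATAC-seq uses the Tn5 transposase to cut accessible DNA, so that promoters and enhancers in use appear as peaks.

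Each region was given the authors' highest −log10 p in each library, and the shared regions were ranked by it within each library. The rank percentile was turned into a normal score, on which 0 is the middle region, 1 is the 84.1st percentile and 2 is the 97.7th. A gene's rank score is the mean over its shared regions, those nearest to it within 50 kb. Differences are KO minus WT on this score, with n = 2 libraries per genotype, and an exact permutation test of 2 against 2 cannot give a p below 0.333. A rank says where a region stands within its library and not how many reads it had. In sections of mixed tissue, a change in the share of a cell type and a change of accessibility within cells cannot be told apart.

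4 start sites carry the first results, and the 250 bases before each are shown here from RefSeq (GRCm38.p6), 5′ to 3′ on the gene's strand. They are the targeted gene and the genes whose start-site region changed between genotypes. Capitals mark 4 motifs on either strand: the GC box with the letters GGGCGG, the box named CCAAT, the NF-kB motif, and the ETS motif. The ETS motif was searched as CCGGAAG. The AP-1 motif, searched as TGANTCA, is in none of these windows. Nor is the CRE motif, searched as TGACGTCA. The TATA motif, searched as TATAAA, and the NRF1 motif are also missing from them. Adjoining or overlapping motifs form 1 capital run. A match is a description of letters and not a bound site.
Tnfrsf12a, chr17:23677450-23677699, minus strand: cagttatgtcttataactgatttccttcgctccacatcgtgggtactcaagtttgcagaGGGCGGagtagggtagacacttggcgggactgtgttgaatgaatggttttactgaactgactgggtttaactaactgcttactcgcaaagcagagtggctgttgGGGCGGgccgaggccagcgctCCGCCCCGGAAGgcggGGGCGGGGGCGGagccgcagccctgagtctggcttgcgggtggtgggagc
Pgk1, chrX:106186850-106187099, plus strand: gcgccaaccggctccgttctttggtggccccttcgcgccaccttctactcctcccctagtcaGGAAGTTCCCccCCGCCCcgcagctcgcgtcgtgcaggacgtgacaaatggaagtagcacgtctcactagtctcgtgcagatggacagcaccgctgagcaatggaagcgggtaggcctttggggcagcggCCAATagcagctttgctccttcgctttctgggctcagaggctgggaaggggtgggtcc
Hltf, chr3:20057561-20057810, plus strand: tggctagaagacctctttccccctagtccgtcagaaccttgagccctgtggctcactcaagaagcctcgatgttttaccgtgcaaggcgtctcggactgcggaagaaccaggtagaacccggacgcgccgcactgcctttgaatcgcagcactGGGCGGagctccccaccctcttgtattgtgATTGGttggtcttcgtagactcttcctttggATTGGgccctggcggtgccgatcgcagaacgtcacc
Gm51425, chr17:17004866-17005115, plus strand: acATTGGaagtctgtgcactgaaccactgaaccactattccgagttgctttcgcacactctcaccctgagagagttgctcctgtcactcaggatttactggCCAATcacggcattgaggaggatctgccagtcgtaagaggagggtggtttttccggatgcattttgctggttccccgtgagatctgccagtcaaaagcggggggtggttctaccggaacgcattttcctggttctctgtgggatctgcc
The stretch before Tnfrsf12a holds 5 GC boxes and 1 ETS motif and is 58.8% G and C. That of Pgk1 holds 1 GC box, 1 CCAAT box and 1 NF-kB motif, that of Hltf 1 GC box and 2 CCAAT boxes, and that of Gm51425 2 CCAAT boxes and no GC box. Of the 32851 start sites in the RefSeq table, with 250 bases before and 50 after the start, 35.7% hold a GC box, 37.4% a CCAAT box, 8.86% an ETS motif and 1.47% an NF-kB motif.

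The deposited lists held 299822 and 299816 peaks in KO and 256323 and 261201 in WT, and the KO 1 list stopped at a −log10 p of 2.85 while the other 3 reached 2.0 to 2.05. The median −log10 p of the shared regions was 18.8 and 16.7 in KO and 13.9 and 11.9 in WT. Ranking within libraries sets aside only the part of this difference that leaves the order of regions unchanged. Region scores correlated at 0.815 between the KO libraries, at 0.805 between the WT libraries and at 0.755 to 0.803 between genotypes, as a description over 107059 regions. KO 2 and WT 1 had 8 peaks at Xist and 12 and 15 peaks on chromosome Y, whereas KO 1 and WT 2 had 1 peak at Xist and 26 and 25 on chromosome Y, so each genotype has 1 library of each pattern. Among marker lists, 28 of 28 cortical and hippocampal excitatory neuron genes and 23 of 24 thalamic neuron genes had a shared region. So had 24 of 24 astrocyte genes, 12 of 12 meningeal and fibroblast genes, and 16318 of all 21887 protein-coding genes. These counts therefore do not identify the tissue.

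At Tnfrsf12a the peak over the start site was found in both WT libraries and in neither KO library, as the genotype labels have it. Its −log10 p was 13.6 in WT 1, the 70.4th percentile of that library's own regions, and 8.02 in WT 2, the 59.7th. The 4 dLGN libraries had it at the 48.9th to 74.4th percentile. Because both KO libraries lacked this peak and no other shared region was nearest to the gene, Tnfrsf12a itself has no rank score. The neighbouring region 3070 to 4265 bp into the direction of transcription, beyond the gene's end, had its −log10 p at 357 and 257 in KO against 206 and 170 in WT. That region stood at the 99.5th and 99.3rd percentile of the KO libraries and the 98.3rd and 98.5th of the WT libraries.

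**Figure D1:**
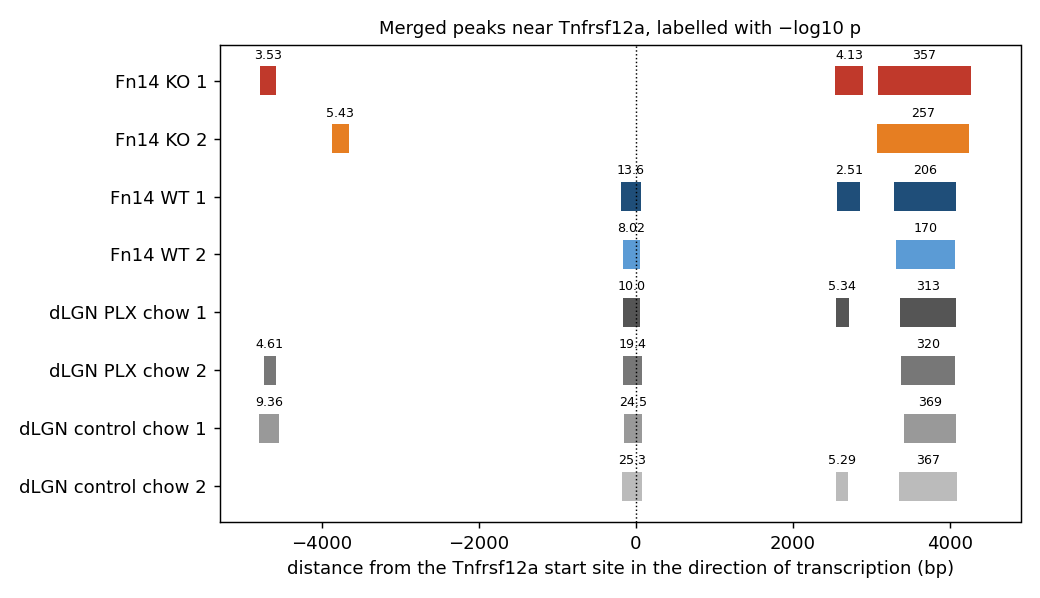
Merged peaks around the Tnfrsf12a start site in the 4 section and 4 dLGN libraries, against the distance from the start site in base pairs, each bar being 1 merged peak labelled with the authors' −log10 p. The bar over the start site is missing in both KO rows and present in the other 6, while the strong region beyond the gene is present in all 8.

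Tnfsf12, the ligand gene, had 2 shared regions. Its rank score was −0.54 and −0.24 in KO and −0.67 and −0.53 in WT, a difference of 0.21 ± 0.18 (limma SE). The 2 genotypes overlapped.

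Region by region, 4 of the 107059 shared regions changed between genotypes by limma with Benjamini-Hochberg adjustment over all of them (0.00374%), 3 higher and 1 lower in KO. An unadjusted p under 0.05 was reached by 9426 regions (8.8%). Both KO libraries stood above both WT libraries at 20760 regions (19.4%) and below both at 21851 (20.4%), so the separated regions divided almost evenly. Of the 11959 shared regions over a start site, 3 changed (0.0251%), 1015 had an unadjusted p under 0.05 (8.49%), and 21.1% stood above and 21.1% below.

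The region that passed with the smallest p lay over the start site of Pgk1, which encodes the glycolytic enzyme phosphoglycerate kinase 1 and whose promoter is a common element of engineered constructs. Its −log10 p was 530 and 458 in KO and 276 and 221 in WT, and its rank score rose by 0.91 ± 0.077 (limma SE, adjusted p = 0.00037). Both KO values were above both WT values, at the 99.9th percentile of shared regions in both KO libraries and the 98.2nd and 98.4th in WT. Among each library's own regions it stood at the 99.3rd to 99.4th percentile in the 4 dLGN libraries, between the WT sections (99.0th and 99.2nd) and the KO sections (99.95th and 99.93rd). The labels do not describe the Fn14 allele, and whether reads from a construct with this promoter contribute to the KO values was not tested.

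A region inside Lars2, the gene of the mitochondrial leucyl-tRNA synthetase, rose by 1.40 ± 0.15 (adjusted p = 0.0054). It lies at chr9:123461727-123462252 (mm10), with −log10 p values of 807 and 563 in KO against 376 and 280 in WT. In KO 1 and KO 2 it was among the strongest of all shared regions, at the 99.999th and 99.97th percentile, against the 99.2nd and 99.1st in WT. The authors' fold enrichment differed less, with 20.3 and 20.1 in KO and 18.5 and 18.2 in WT. In the dLGN libraries the fold was lower, 10.3 to 13.8. The region's edges were the same to the base, 123461727 and 123462248, in KO 1, WT 1, PLX chow 1 and both control chow libraries. What sets these edges was not tested. Of the 10 shared regions of Lars2, this one included, 4 stood higher in both KO libraries and 0 lower, and the gene's score differed by 0.34 ± 0.11 (adjusted p = 0.405).

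The other 2 regions that passed were the start sites of Gm51425 and Hltf. Gm51425 is a predicted gene of chromosome 17, 6.67 Mb from Tnfrsf12a, and Hltf encodes a helicase-like transcription factor active at stalled replication forks. Gm51425 reached −log10 p values of 436 and 389 in KO against 287 and 206 in WT and rose by 0.59 ± 0.079 (adjusted p = 0.042). Hltf had 661 and 638 in KO and 811 and 712 in WT and fell by 0.39 on the score (SE 0.050, adjusted p = 0.027). The Hltf region was the second strongest shared region in each WT library, so its difference lies among the top ranks, where a step of 1 rank is wide on the normal score. With fold enrichment ranked in place of −log10 p, each of the 4 regions kept its direction and lost its call, with an adjusted p of 0.404 at Pgk1, 0.523 at Lars2, 0.651 at Gm51425 and 0.574 at Hltf. None of the 4 passed with the rank percentile in place of the normal score or with no variance trend. Gm51425 and Hltf also missed the threshold in settings where Pgk1 and Lars2 kept their call. Their limma adjusted p was 0.16 and 0.15 with scores centred per chromosome. It was 0.16 and 0.14 with centring per class of local gene density. Where peaks had to cover 50% of the region in every library it was 0.089 and 0.43.

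Outside these 4, several regions had wide gaps between genotypes but missed the threshold. A region on chromosome 4 with no protein-coding gene within 50 kb (chr4:125814283-125814775) reached a −log10 p of 72.2 in KO 1 and 73.2 in KO 2 against 3.97 in WT 1 and 5.36 in WT 2, with folds of 11.6 and 11.8 against 2.46 and 2.96. Its difference of 2.46 ± 0.36 had an adjusted p of 0.071, and none of the 4 dLGN libraries had a peak there. Weak peaks in both WT libraries keep this region in the shared set.

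2 regions on chromosome 17 went the other way, both over start sites near Tnfrsf12a. Zfp994, a zinc finger gene 1.45 Mb from Tnfrsf12a, had its −log10 p at 67.1 and 52.6 in KO against 205 and 162 in WT, a difference of −0.82 ± 0.12 (adjusted p = 0.071). Gm7072, at 1.36 Mb, had 61.6 and 57.8 in KO and 199 and 174 in WT, a difference of −0.83 ± 0.12 (adjusted p = 0.071). Both passed by limma in some other settings. With fold enrichment ranked the adjusted p was 0.0021 at Zfp994 and 0.0022 at Gm7072. Among the strongest 50000 regions it was 0.0021 at both, and with regions shared by all 8 libraries it was 0.0014 and 0.0082. Both missed the threshold in others. The adjusted p at each was 0.14 with rank percentiles, 0.59 with no variance trend and 0.16 with scores centred within classes of local gene density. In the dLGN libraries the folds at these 2 start sites were 23.0 to 29.1, like those of the WT sections (21.8 to 23.6) and above those of the KO sections (9.55 to 11.3). A second region on chromosome 4 without a near gene (chr4:97465666-97466717) was also weaker in KO, with folds of 7.39 and 6.21 against 17.8 and 14.6 and 21.0 to 26.2 in dLGN (adjusted p = 0.10).

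The last pair that the naming rule takes were strong regions in every library. At the start site of Prmt5, which encodes an arginine methyltransferase, the score differed by 0.39 ± 0.063 (adjusted p = 0.14), but its fold was 17.1 and 17.4 in KO and 18.7 and 17.7 in WT, and with fold ranked the difference was −0.0031. At a region touching Med30, a subunit of the Mediator complex, the score differed by −0.41 ± 0.067 (adjusted p = 0.18), with folds of 23.3 in both KO libraries and 27.2 and 25.4 in WT.

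**Figure D2:**
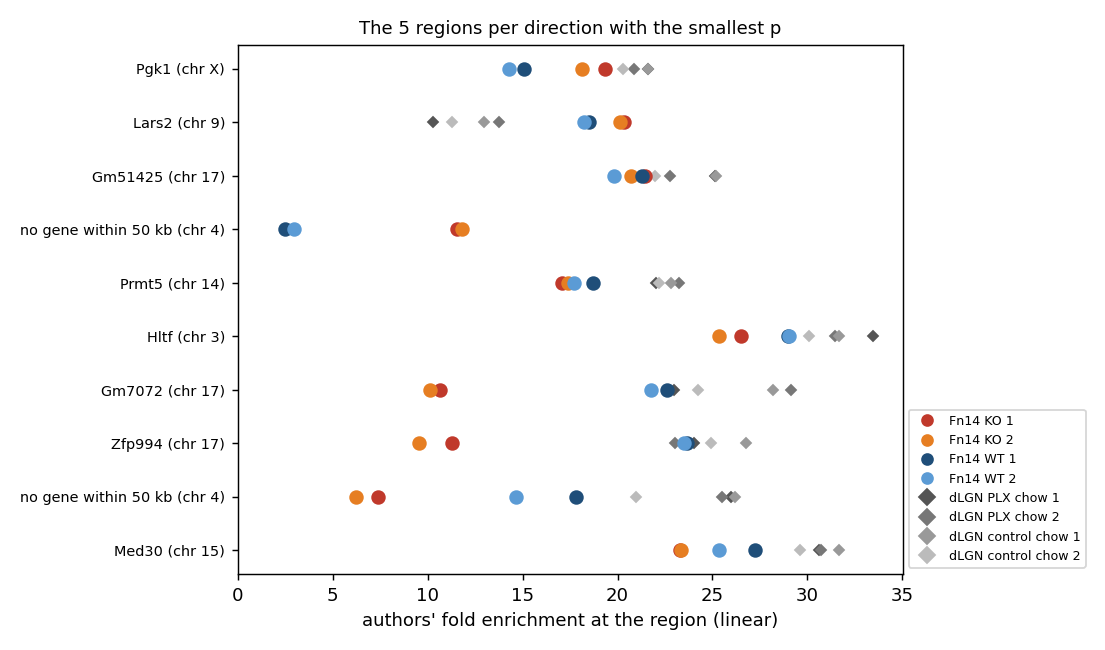
Authors' fold enrichment (linear axis) at the 5 regions per direction with the smallest p, 1 row per region, circles for the 4 section libraries and diamonds for the 4 dLGN libraries. KO and WT circles lie far apart at the first chromosome 4 region, which has no dLGN diamond, and at Gm7072, Zfp994 and the second chromosome 4 region, where the diamonds lie with or beyond the WT circles.

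Chromosome 17 was also read by distance from the targeted gene. Of 367 shared regions within 5 Mb of Tnfrsf12a, 36.5% had both KO libraries above both WT libraries and 13.6% below, and 15.8% had an unadjusted p under 0.05. Beyond 10 Mb, the values over 2776 regions were 24.2%, 18.1% and 9.26%. The inner window is gene-rich, with a median of 25 protein-coding genes within 500 kb of a region against 7 beyond 10 Mb. After scores were centred within classes of local gene density, a setting chosen after seeing the data, the inner window had 26.2% above and 24.3% below. The window from 5 to 10 Mb, with 332 regions, had 32.8% above and 13.6% below before centring and 30.4% and 18.1% after it, and beyond 10 Mb the centred shares were 22.7% and 19.1%.

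By gene, 0 of 16318 genes with a shared region changed by limma with Benjamini-Hochberg adjustment (0%), and the smallest adjusted p was 0.368. An unadjusted p under 0.05 was found for 1806 genes (11.1%), of which 1164 were higher (7.13%) and 642 lower (3.93%) in KO. Both KO libraries stood above both WT libraries for 4148 genes (25.4%) and below for 3086 (18.9%). With fold enrichment ranked in place of −log10 p this balance turned, to 3189 genes above and 3643 below, and with scores centred by local gene density it was 3174 and 4003. The direction of the balance over all genes thus depended on the setting. The differences ran from −0.40 at the 5th to 0.56 at the 95th percentile of genes, and the median was 0.03.

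The genes with the smallest p on the higher side were a mixed group. Spint2, a serine protease inhibitor, had rank scores of 0.08 and 0.05 in KO, against −1.54 and −1.80 in WT (difference 1.74 ± 0.18, adjusted p = 0.368). Both its regions separated: the one over the start site had its −log10 p at 19.6 and 16.2 in KO against 7.20 and 4.27 in WT, and the one inside the gene 22.04 and 19.4 against 2.64 and 2.40. The WT values of the second lie just over the peak-calling threshold, where the rank is least certain.

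Htr6, the serotonin receptor 6 gene, had scores of 0.40 and −0.02 in KO, against −1.13 and −1.07 in WT (1.28 ± 0.20). Abcc8, the sulfonylurea receptor of ATP-sensitive potassium channels, had −0.12 and −0.25 against −1.51 and −1.66 (1.40 ± 0.17). For Ksr2, a scaffold of the RAF and MEK kinases, 8 of 10 shared regions stood higher in both KO libraries and 0 lower, and the score was 0.15 and 0.12 in KO and −0.53 and −0.56 in WT. Clip1, a microtubule plus-end protein, had 5 of 6 regions higher and scores of 0.43 and 0.27 against −0.55 and −0.50. The other 5 genes named on this side were Meox1, Ackr2, Foxn1, Cyp2c23 and Hectd4, with 2 to 4 shared regions and differences of 0.93 to 1.23. All 10 had an adjusted p of 0.368 and non-overlapping genotypes, which the naming rule required.

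On the lower side, Prdm13, a transcription regulator of GABAergic fate, had scores of −1.43 and −1.17 in KO, against −0.20 and −0.15 in WT, and all 4 of its regions stood lower. S100b, a calcium-binding protein of astrocytes, had −0.63 and −0.55 against 0.12 and 0.32 (difference −0.81 ± 0.15), again with 4 of 4 regions lower. Corin, a natriuretic peptide-processing protease, had 5 of 12 regions lower and 0 higher, and Nrip1, a corepressor of nuclear receptors, 4 of 12 lower and 0 higher. Stk17b, a kinase of the death-associated family, had −0.70 and −0.39 against 0.39 and 0.74, and Mybl1, a MYB transcription factor, −0.16 and −0.05 against 0.88 and 0.80. Tmem26, Nhs, Mthfsl and Gjd4 completed the group, with differences of −0.995 to −0.69. Each of these 10 also had an adjusted p of 0.368.

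The Fn14 pathway was followed from the receptors inward. Among the 10 ligand and receptor genes with a shared region, 2 had both KO libraries above both WT libraries and 0 below, against 25.4% and 18.9% of all genes, and the median difference was 0.15 against 0.03. The 2 were Ngfr, the p75 neurotrophin receptor (0.33 and 0.15 in KO, −0.04 and −0.14 in WT), and Tnfrsf21, death receptor 6 (−0.01 and 0.09 against −0.48 and −0.05). Tnfrsf1a and Tnfrsf1b, the receptors of TNF, differed by 0.03 ± 0.17 and −0.07 ± 0.21.

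Of 21 adaptor and kinase genes, 7 stood higher and 2 lower in KO (33.3% and 9.52%), beside 25.4% and 18.9% of all genes. The median was 0.10, and 0 changed. Map3k14, which encodes NIK, the kinase that Fn14 uses to reach the non-canonical NF-kB pathway, had 0.66 and 0.50 in KO and 0.09 and 0.11 in WT (difference 0.48 ± 0.15, adjusted p = 0.398). Mapk14, the p38 alpha kinase, had 0.15 and −0.26 against −0.51 and −0.91 (0.66 ± 0.21, adjusted p = 0.405). The TRAF adaptors Traf2, Traf3 and Traf5 stood higher in both KO libraries, by 0.15, 0.32 and 0.36, and Traf6 lower, by −0.14. With scores centred by local gene density the list had 4 higher and 2 lower and a median of 0.00.

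NF-kB subunits and inhibitors divided, with 1 of 11 higher and 2 lower, beside 25.4% and 18.9% of all genes, and a median of 0.04. Rela, the p65 subunit, had 1.32 and 1.23 in KO and 0.96 and 1.00 in WT, with both its regions higher (difference 0.30 ± 0.16, adjusted p = 0.53). The inhibitors Nfkbia and Nfkbiz stood lower in both KO libraries, by −0.18 each, with an SE of 0.094 and 0.135.

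The astrocyte, oligodendrocyte and precursor lists had more members lower than higher in KO. Of 24 astrocyte genes, 11 (45.8%) had both KO libraries below both WT libraries and 3 (12.5%) above, against 18.9% and 25.4% of all genes, and the median difference was −0.15. Aqp4, the water channel of astrocyte endfeet, had −0.40 and −0.13 in KO and 0.16 and 0.08 in WT (difference −0.38 ± 0.14, adjusted p = 0.43). Slc4a4, a bicarbonate cotransporter, had 13 of 41 regions lower and 1 higher (−0.20 ± 0.07, adjusted p = 0.41), and Fgfr3, a growth factor receptor of astrocytes, differed by −0.31 ± 0.11. Glul, the glutamine synthetase gene, went the other way with 0.37 ± 0.15.

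Start sites alone, with 1 region per gene, gave the same order. Of 20 astrocyte genes with a shared start-site region, 10 stood lower in both KO libraries and 0 higher, beside 21.0% lower and 21.1% higher of 13095 genes, and the median difference was −0.20. The start site of Apoe, the main lipid carrier of astrocytes, stood at the 72.6th and 53.4th percentile of shared regions in KO and the 82.8th and 77.4th in WT, although over its 3 regions the genotypes overlapped. That of Slc1a3, the glutamate transporter GLAST, stood at 54.6 and 50.5 in KO, below 76.5 and 73.1 in WT. None of these start sites passed the test, the smallest adjusted p being 0.49 at S100b.

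Oligodendrocyte genes had 6 of 24 lower and 0 higher, beside 18.9% and 25.4% of all genes, with a median of −0.11. At start sites 7 of 14 were lower and 0 higher, with a median of −0.29. Mag, a myelin-associated glycoprotein, had 0.21 and −0.16 in KO and 0.69 and 0.35 in WT. Oligodendrocyte precursor genes had 7 of 18 lower and 2 higher, with a median of −0.17, while at start sites 2 of 10 were lower (20%) and 1 higher, beside 21.0% and 21.1% of all genes. Nkx2-2, a transcription factor of this lineage, differed by −0.43 ± 0.14, and Neu4, a sialidase, by −0.50 ± 0.24. No member of either list changed (0 of 24 and 0 of 18), and 2 precursor genes had an unadjusted p under 0.05, both lower in KO.

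Thalamic neuron genes had 11 of 23 lower (47.8%) and 4 higher (17.4%), beside 18.9% and 25.4% of all genes, with a median of −0.13. Those lower included the transcription factor genes Foxp2 (7 of 16 regions lower and 0 higher, difference −0.36 ± 0.10), Zic1 (−0.56 ± 0.18), Lhx9 (−0.38 ± 0.13) and Pou4f1 (−0.59 ± 0.17). Slitrk6, an axonal adhesion protein, had −0.40 and −0.19 in KO and 0.10 and 0.50 in WT. Grm4, a metabotropic glutamate receptor, stood higher, with 0.17 and −0.21 against −0.83 and −0.64, but its sign turned with only the strongest region of each gene and with the strongest 50000 regions. The slabs were cut by hand and hold an unstated share of thalamus, and its part in these values was not tested.

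Of the microglial genes, 7 of 22 (31.8%) stood above and 2 (9.09%) below, beside 25.4% and 18.9% of all genes, with a median of 0.10, and 6 of the 28 listed had no shared region. C1qc, a complement component, had 0.10 and −0.48 in KO and −0.84 and −1.47 in WT (difference 0.97 ± 0.30, adjusted p = 0.405). At Aif1, which encodes IBA1, a single region had −0.22 and 0.22 against −1.08 and −1.70, from −log10 p values of 15.1 and 20.9 in KO against 5.49 and 3.29 in WT. At start sites 2 of 9 were higher and 3 lower, beside 21.1% and 21.0% of all genes. The higher were Olfml3 and Runx1. The lower were Cx3cr1, the fractalkine receptor, P2ry12, a purinergic receptor, and Sall1, a transcription factor of microglial identity. The start site of P2ry12 stood at the 43.6th and 46.5th percentile in KO, below the 64.4th and 73.0th in WT.

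**Figure D3:**
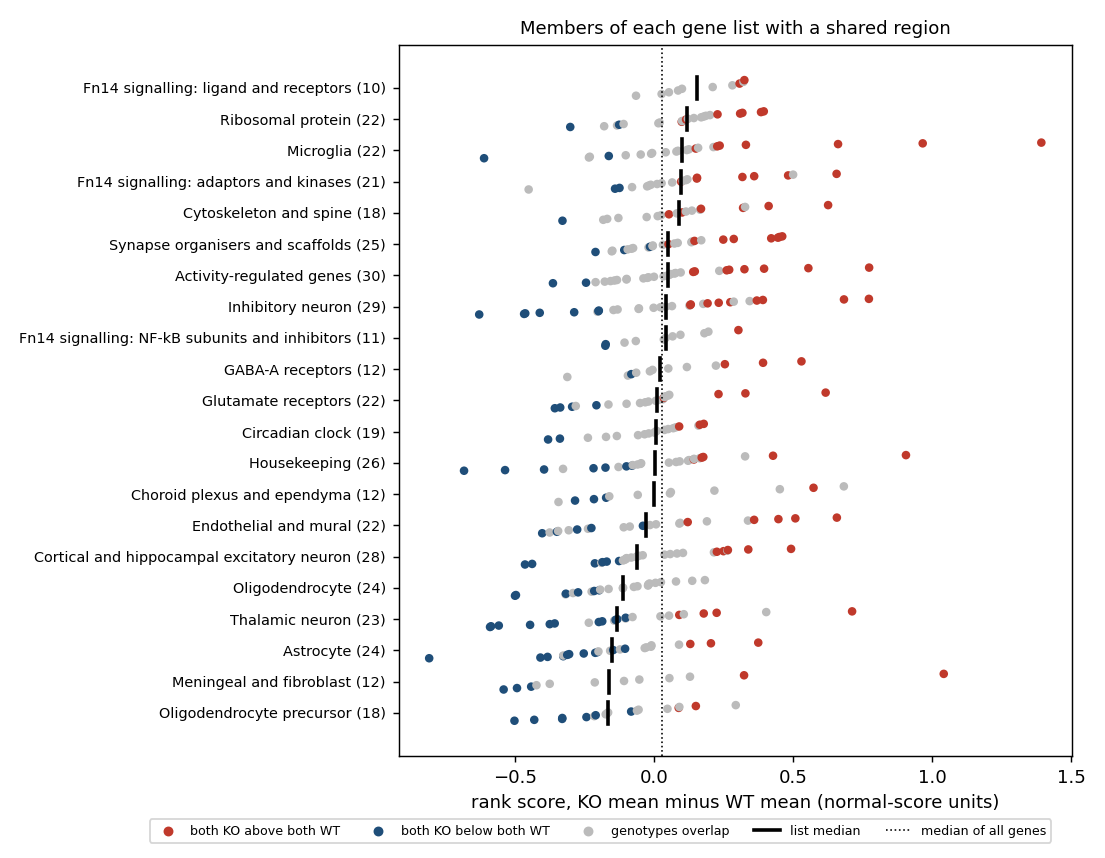
Difference in rank score, KO mean minus WT mean, for each list member with a shared region (points, in red where both KO libraries are above both WT libraries, in blue where below, in grey where they overlap), with list medians as bars and the median of all genes as a dotted line. The precursor, meningeal, astrocyte, thalamic and oligodendrocyte lists have medians of −0.17 to −0.11 and the Fn14 receptor list 0.15, while single members of every list spread far more widely.

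The remaining cell types were mixed, and are read beside 25.4% higher and 18.9% lower of all genes. Inhibitory neuron genes had 9 of 29 higher and 7 lower, with Cck, the cholecystokinin gene, at 0.68 ± 0.15 and Elfn1, a postsynaptic adhesion protein, at 0.77 ± 0.28, while Erbb4, the neuregulin receptor, had 13 of 25 regions lower and 1 higher (−0.46 ± 0.14). Cortical and hippocampal excitatory genes had 5 of 28 higher and 6 lower, with Tbr1, a layer 6 transcription factor, at −0.47 ± 0.16 and Fibcd1, a marker of hippocampal CA1, at 0.49 ± 0.20. Endothelial and mural genes had 5 of 22 each way, with a median of −0.029 and differences from −0.40 to 0.66. The naming rule takes the largest differences, and both members named here, Flt1 and Erg, stood higher. Flt1, a VEGF receptor, had 5 of 6 regions higher (0.66 ± 0.13, limma adjusted p = 0.368). Erg, an endothelial transcription factor, had 6 of 10 higher (0.51 ± 0.16), but its strongest region alone was at −0.034.

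Choroid plexus and meningeal genes mark tissue that a hand-cut slab can carry. They had 1 of 12 higher and 3 lower and 2 of 12 higher and 3 lower, beside 25.4% and 18.9% of all genes. Kl, the Klotho gene of the choroid plexus, was the 1 higher member, by 0.57 ± 0.17 (−0.078 at its strongest region). Dnah11 of the same list was lower, by −0.22 ± 0.13, but its sign turned in 2 settings. Tbx18 and Col1a2 of meningeal cells differed by −0.54 ± 0.17 and −0.49 ± 0.23.

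Activity-regulated genes, to which Fn14 itself belongs, had 8 of 30 higher (26.7%) and 2 lower (6.67%) with a median of 0.05, beside 25.4% and 18.9% of all genes, and 3 had an unadjusted p under 0.05, all higher. With fold enrichment ranked the balance turned, to 5 higher and 13 lower with a median of −0.10, where all genes had 19.5% and 22.3%. With density centring it was 7 higher and 9 lower, where all genes had 19.5% and 24.5%. Fos, the immediate early transcription factor, had 0.66 and 0.67 in KO and 0.33 and 0.36 in WT (difference 0.32 ± 0.10, adjusted p = 0.39), with 8 of its 12 regions higher and 2 lower. Its start-site region barely differed, with rank percentiles of 95.2 and 95.2 in KO, against 94.3 and 94.3 in WT. The wider gaps were at distal regions of Fos, among them one 5892 bp from the gene with its −log10 p at 27.7 and 38.8 in KO against 5.57 and 8.09 in WT. Dusp1, a MAP kinase phosphatase, had 5 of 6 regions higher (0.55 ± 0.17) but −0.016 at its strongest region, and Npas4, a neuronal activity factor, 3 of 4 (0.40 ± 0.16). Jun, the partner of Fos in AP-1, was lower, by −0.37 ± 0.16.

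Synapse organisers and scaffolds had 8 of 25 higher (32%) and 3 lower (12%), beside 25.4% and 18.9% of all genes, with a median of 0.05. By limma 4 had an unadjusted p under 0.05, all higher. The balance turned with fold enrichment ranked (6 higher and 8 lower, median −0.043), where all genes had 19.5% and 22.3%. It was 4 and 4 with the strongest region of each gene. At start sites 3 of 14 were higher and 3 lower, beside 21.1% and 21.0% of all genes. Shank2, a postsynaptic scaffold, had 11 of 19 regions higher and 1 lower, with scores of 0.31 and 0.17 in KO, against −0.15 and −0.25 in WT (0.44 ± 0.10, adjusted p = 0.368). Dlg2, which encodes PSD-93, had 29 of 68 regions higher and 8 lower (0.25 ± 0.06, adjusted p = 0.368). Syn2, a synaptic vesicle protein, differed by 0.46 ± 0.12 and Shank1 by 0.45 ± 0.14, with −0.18 at its strongest region. These genes lie in gene-poor surroundings, with a median of 2 protein-coding genes within 500 kb of their regions against 9 for all genes. Over all shared regions with 1 to 3 such genes, 13.9% stood higher and 23.6% lower in KO.

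Glutamate receptor genes divided evenly, 4 of 22 each way, beside 25.4% higher and 18.9% lower of all genes. Grin2a, the NMDA receptor subunit GluN2A, had 13 of 23 regions higher and 0 lower, but KO 2 and WT 1 lay close, with scores of 0.05 and −0.34 in KO, against −0.53 and −0.99 in WT (0.62 ± 0.20, adjusted p = 0.405). Grik1, a kainate receptor subunit, had 10 of 21 regions lower and 1 higher (−0.36 ± 0.09, adjusted p = 0.368).

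GABA-A receptor genes had 3 of 12 higher (25%) and 1 lower (8.33%) by gene, beside 25.4% and 18.9% of all genes. With the strongest region of each they had 1 higher and 3 lower. The higher members were led by Gabrd (0.53 ± 0.26) and Gabrg3 (0.39 ± 0.13). At start sites the balance was the reverse: 5 of 8 were lower and 0 higher, beside 21.0% and 21.1% of all genes, with a median of −0.28. The 5 were Gabra2, Gabra4, Gabrb1, Gabrb2 and Gabrg3, of which Gabra4 and Gabrb1 share 1 region between their starts. The start site of Gabrb2, the beta-2 subunit, stood at the 63.7th and 75.6th percentile in KO and the 82.4th and 84.1st in WT (difference −0.44 ± 0.20, adjusted p = 0.55). Gabrg3 was thus lower at its start site (−0.38 ± 0.24) and higher over its 10 regions.

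Cytoskeleton and spine genes had 6 of 18 higher (33.3%) and 1 lower (5.56%) with a median of 0.09. With fold enrichment ranked they had 3 higher and 6 lower with a median of −0.064. For this list and those that follow, all genes had 25.4% higher and 18.9% lower, and 19.5% and 22.3% with fold ranked. Cdc42, a small GTPase of the actin cytoskeleton, had 0.87 and 0.93 in KO and 0.41 and 0.14 in WT (0.62 ± 0.18, adjusted p = 0.39), and Arhgef2, an activator of RhoA, differed by 0.41 ± 0.14. Among 19 clock genes 3 were higher and 2 lower, the latter being the repressors Bhlhe40 (−0.38 ± 0.12) and Bhlhe41 (−0.34 ± 0.14). Ribosomal protein genes had 7 of 22 higher and 2 lower with a median of 0.12, including Rpl13 and Rps19 at 0.39 ± 0.16 and 0.38 ± 0.19. Housekeeping genes had 5 of 26 higher and 7 lower, with Gapdh at −0.69 ± 0.19 and Snrpd3 at −0.54 ± 0.26. In all 21 lists, 0 members changed by gene after limma p-values were adjusted over all genes.

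The shares of regions that separated the genotypes varied with local gene density. Among regions with 0 protein-coding genes within 500 kb, 7.64% had both KO libraries above both WT libraries and 24.9% below, and the median difference was −0.16. With 8 to 12 genes the shares were 19.6% and 20.4%, and with over 20 genes 29.6% and 14.02%, with a median of 0.09. The order held among start-site regions too, where regions with 1 to 3 genes had 8.97% above and 33.7% below and those with over 20 genes 31.3% and 11.4%. Regions more than 50 kb from any gene had 14.7% above and 22.8% below. By library, the mean scores with 0 genes were −0.398 in KO 1, −0.065 in KO 2, −0.127 in WT 1 and −0.00082 in WT 2. The genotypes thus overlapped there. With over 20 genes the mean scores were 0.401, 0.246, 0.225 and 0.176 in that order. In both classes KO 1 stood furthest from the other libraries.

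**Figure D4:**
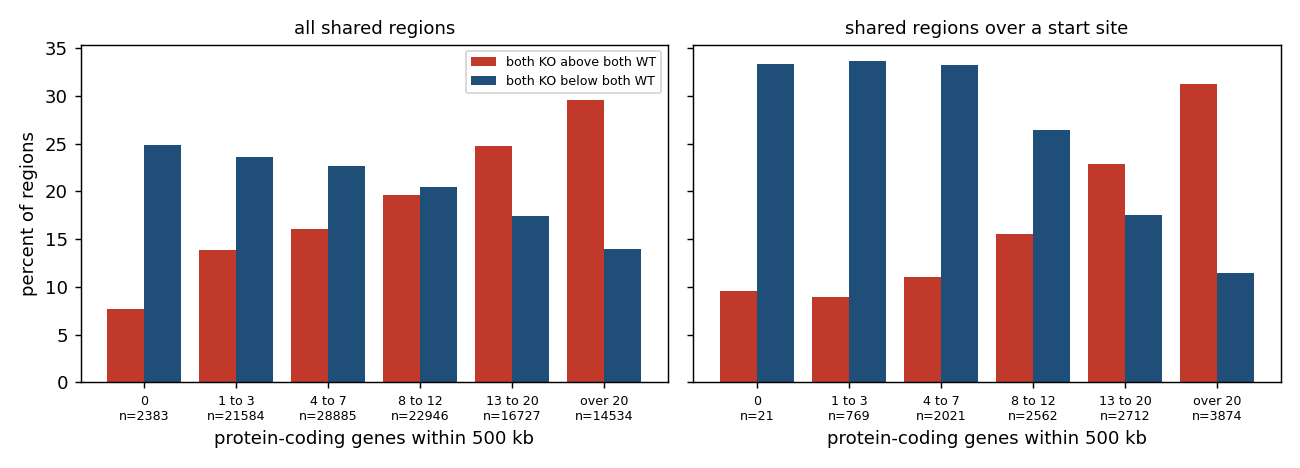
Percent of shared regions with both KO libraries above (red) or below (blue) both WT libraries, in 6 classes of local gene density (protein-coding genes within 500 kb), for all shared regions and for those over a start site, with the number of regions under each pair of bars. Red rises from 7.64% to 29.6% and blue drops from 24.9% to 14.02% over all shared regions.

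Whole chromosomes showed the same order. The median difference was highest on chromosomes 11 (0.09), 7 (0.08) and 9 (0.07) and lowest on chromosomes X (−0.13) and 3 (−0.08). Across the 20 chromosomes it correlated with the number of protein-coding genes per Mb at Pearson r = 0.855 and Spearman rho = 0.878, and across the 19 autosomes at 0.873 and 0.872. These are descriptions over chromosomes of the same 4 libraries, and carry no p. The libraries differed: over the autosomes the Pearson correlation of mean score with gene density was 0.945 in KO 1 and 0.760 in KO 2. It was 0.277 in WT 1 and −0.456 in WT 2. Over the 20 chromosomes the values were 0.945, 0.449, −0.025 and −0.48 in that order. KO 1, whose list stopped at a higher −log10 p, had the highest correlation. Chromosome X was lowest in KO 1 (mean score −0.06) and stood at 0.10 in KO 2, 0.16 in WT 1 and 0.17 in WT 2.

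**Figure D5:**
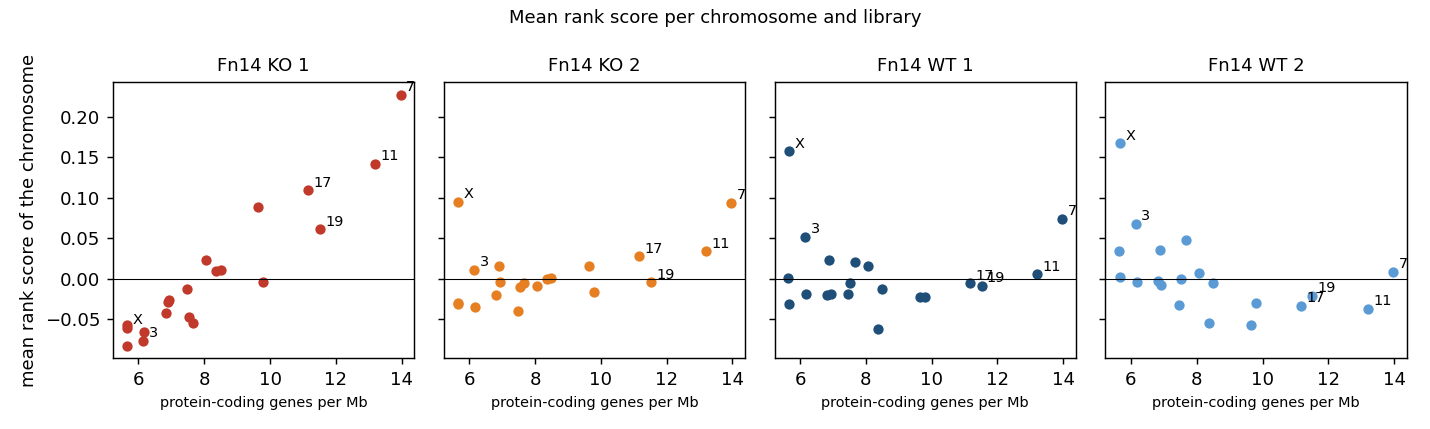
Mean rank score of each chromosome against its protein-coding genes per Mb, 1 panel per section library and 1 point per chromosome. The points climb steeply in KO 1, where chromosome 7 reaches 0.23, climb slightly in KO 2, show little slope in WT 1 and tilt downward in WT 2.

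The glial and thalamic balances were therefore read again with scores centred within classes of local gene density. Astrocyte genes then had 14 of 24 lower and 2 higher, oligodendrocyte genes 14 of 24 lower and 0 higher, and precursor genes 7 of 18 lower and 1 higher, beside 24.5% lower and 19.5% higher of all genes. Thalamic genes had 6 of 23 lower (26.1%) and 3 higher. Microglial genes had 5 of 22 higher and 2 lower. With 1 library left out, 1 library is set against 2 and separation is easier. Without KO 1, 34.0% of all genes were lower and 35.5% higher. These shares were 31.9% and 45.4% without KO 2, 32.2% and 40.7% without WT 1, and 31.5% and 37.2% without WT 2. Astrocyte genes then had 14 to 16 of 24 lower and 3 to 5 higher, whichever library was left out. Precursor genes had 9 to 11 of 18 lower and 3 to 6 higher. Thalamic genes had 11 to 14 lower and 4 to 9 higher, of 23 without a KO library and 24 without a WT library. The oligodendrocyte counts depended on the library left out. They were 16 of 24 lower and 0 higher without KO 1, and 13 and 4 without WT 2. Without WT 1 they were 7 of 23 lower and 3 higher. Without KO 2 they were 9 of 24 lower (37.5%) and 10 higher (41.7%). Microglial genes had 10 of 22 higher and 7 lower without KO 1, and 11 of 22 and 4 without KO 2. They had 8 of 24 higher and 7 lower without WT 1, and 10 of 22 and 5 without WT 2.

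The promoters of the separated start sites were compared by their letters. The promoters of 2760 genes whose start-site region stood higher in both KO libraries had a median of 60.2% G and C, those of 2751 genes that stood lower 62.0%, and all 13095 with a shared start-site region 61.0%. An ETS motif was present in 20.3% of the higher, 13.3% of the lower and 16.1% of all these promoters. A CCAAT box was in 41.6%, 37.4% and 38.2%, a GC box in 61.1%, 64.6% and 62.9%, and an NRF1 motif in 1.52%, 2.29% and 1.92%. NF-kB motifs were found in 1.78%, 1.31% and 1.33%, and AP-1 motifs in 5.15%, 4.76% and 4.90%. These shares carry no test, and the higher and lower start sites also differ in local gene density.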

How the data were processed

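Open chromatin was measured by ATAC-seq in 2 Fn14 KO and 2 Fn14 WT libraries, from aliquots of 50000 nuclei, per the labels' protocols. Per the deposited pipeline instructions the authors used the ENCODE ATAC-seq pipeline with multimapping set to 0 and a peak p threshold of 0.01, and the list names record a limit of 300000 peaks. The genome build is mm10 and deepTools 3.5.0 is named, per the submitters' processing notes. Which aligner and peak caller ran is not given in the sources used here. The deposited lists, 1 per sample, give each peak a fold enrichment (a ratio), a −log10 p and a −log10 q, which are the authors' own values. Read depth is unknown, so no counting interval is given.

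Overlapping peaks (1 bp or more) were merged per library, each region keeping its highest values, and regions with a peak in all 4 libraries were ranked by −log10 p within each library. Ranks became normal scores, (rank − 0.5)/n, and each region went to the nearest protein-coding gene of the RefSeq table (GRCm38.p6, 21887 genes) within 50 kb. Sequences came from RefSeq promoters, and 325 of 438 list genes had an entry. limma 3.58.1 in R 4.3.3 (moderated, 2-sided, trend on the number of regions per gene or the mean score) was fitted over all genes or regions, with Benjamini-Hochberg adjustment and a threshold of 0.05. The fits were tested on simulated data with planted shifts wider than most gene differences given here, so recovery of small differences was not tested.

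The rule for named genes took Tnfrsf12a, Tnfsf12, the 10 genes per direction with the smallest p among those with at least 2 shared regions and no overlap of genotypes, the genes of the 5 regions per direction with the smallest p, and 2 members per list with the largest difference among those with at least 2 shared regions and no overlap. Some genes that the rule or a list takes are not reported here, though list counts include them. Other list members in the text were chosen after their values were seen. The members, the 21 lists and the tests were chosen with earlier results of these data known, and lists are described by counts and medians with no set test. Alternatives and their effect are given in the closing section.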

Additional observations from a re-analysis of the deposited data

How the results depend on the processing

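Read depth is unknown, so weak regions near the peak-calling threshold, whose −log10 p takes few distinct values, limit the precision of genes with 1 or 2 shared regions. The count of changed genes stayed at 0 in every setting tried except 2: with the strongest region of each gene it was 6, and with regions shared by all 8 libraries in a 4-group fit it was 4. The count of changed shared regions moved in most settings. It was 2 with ranks of fold enrichment, which were the start sites of Gm7072 and Zfp994, 0 with the rank percentile in place of the normal score, 2 when peaks had to cover 50% of the region in every library, 75 with regions shared by all 8 libraries, 2 on autosomes only and 0 with no variance trend. Centring scores per chromosome gave 2 and centring per class of local gene density gave 2, both chosen after seeing the data, as was cutting the lists to the same number of peaks, which gave 4. The strongest 50000 regions gave 6 and a q of at most 0.05 gave 4. Leaving out 1 library gave 20 to 227 changed regions (20 without KO 1, 170 without KO 2, 227 without WT 1 and 108 without WT 2), 5821 to 7460 genes with KO above WT and 5219 to 5580 below, and 0 changed genes each time. The lone library is then assumed to vary like the other genotype, and fewer libraries make separation easier. With the replicate block 1087 regions changed, 686 higher and 401 lower, and 0 genes. The deviations of same-numbered libraries correlated at 0.16 over regions (0.14 over genes), with only 2 pairs, so the numbers are not taken to pair the samples.

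The single results that reversed were few: 18 gene values and 1 region value. With the strongest region of each gene the differences were −0.14 at Nptx2, −0.016 at Dusp1, −0.034 at Erg, −0.85 at Grm4, −0.078 at Kl and −0.18 at Shank1. With regions inside a gene or within 1 kb Dusp1 was at −0.016. With the strongest 50000 regions they were −0.18 at Nptx2, −1.65 at Grm4, 0.015 at Dnah11 and −0.40 at Shank1. With peaks that cover 50% of the region they were −0.14 at Nptx2 and 0.040 at Dnah11. Prmt5 as a gene was at −0.038 with fold ranks (its region at −0.0031), −0.0098 with rank percentiles, −0.050 to 0.19 with 1 library left out (below 0 without KO 1, at −0.022, and without WT 2), and −0.051 with density centring. Each had an adjusted limma p above the threshold, and the cause was not tested. The astrocyte, precursor and thalamic lists kept more members lower than higher in all 16 alternatives, and the oligodendrocyte list in 15 of 16. The adaptor and kinase list kept more higher in all 16. The Fn14 ligand and receptor, microglial and ribosomal protein lists did so in 15 of 16. All genes kept more higher in 14 of 16, turning with fold ranks and density centring. These list counts are not set against the shares of all genes.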
